A study of Mus musculus with 12 samples.

Results

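The early streak (ES) and the mid streak (MS) stages of mouse gastrulation were compared for the histone marks H3K27ac and H3K4me1, using 4 of the 12 peak lists of the series: ES and MS, each with both marks. The peaks of the ES and MS lists of a mark were merged where they overlapped by at least 1 bp, and each merged region was then classed as ES-only, MS-only or shared by which list had a peak in it. This gave 40220 H3K27ac regions and 54974 H3K4me1 regions. All 4 lists came from C57BL/6 embryos, for which the labels name no mutation and no treatment; H3K27ac was mapped with an antibody from CST, and no maker is named for the H3K4me1 antibody. ES embryos were labelled E6.0 and E6.5 and MS embryos E6.0 and E7.0, so the ages overlap, and the stage was assigned by morphology. Per the labels' protocols, embryos of both stages had their extraembryonic tissue dissected away and were then dissociated to single cells with collagenase. Marks were mapped by CoBATCH, in which an antibody directs the Tn5 transposase to marked chromatin and the DNA there is tagged and sequenced. There is 1 list per stage and mark, single cells were not analysed here, and fewer cells with a mark at a site cannot be told apart from less mark per cell. There was 1 library per stage and mark, so no difference below can be set against a spread between replicates, and stage, library and sequencing depth cannot be told apart.

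H3K27ac is deposited on nucleosomes at active promoters and enhancers, and H3K4me1 marks enhancers whether active or not. The primitive streak is the site where epiblast cells lose their epithelial form and move inwards to become mesoderm and endoderm. Nodal, Wnt, FGF and BMP signals set up the streak, and T-box and bHLH transcription factors such as Eomes, T and Mesp1 act in the cells that leave it.

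The ES lists were the longer ones. H3K27ac had 36930 peaks over 41.4 Mb at ES and 30072 peaks over 35.9 Mb at MS, and H3K4me1 had 47849 peaks over 49.4 Mb at ES and 42344 peaks over 44.2 Mb at MS. Fragment numbers per library were not analysed here. The background at the weakest peaks, a stand-in for depth solved from their deposited fold and p-value, was 1.24 times as high at ES as at MS for H3K27ac and 1.13 times as high for H3K4me1. The ratio of peak numbers was 1.23 for H3K27ac and 1.13 for H3K4me1. The part of depth in the longer ES lists was not tested.

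Most marked regions were found at both stages, and the regions of a single stage were more often those of ES. For H3K27ac, 26153 regions (65.0%) were shared, 10443 (26.0%, 95% Wilson interval 25.5 to 26.4) were ES-only and 3624 (9.01%, 8.73 to 9.29) were MS-only. For H3K4me1, 34102 regions (62.0%) were shared, 13285 (24.2%, 23.8 to 24.5) were ES-only and 7587 (13.8%, 13.5 to 14.1) were MS-only. These intervals cover counting error only. With equal numbers of peaks taken from both lists by their −log10 q there were 5500 ES-only and 5492 MS-only regions of H3K27ac, and 9190 and 8964 of H3K4me1. Lists of equal length have nearly equal numbers of unmatched peaks by construction, so these counts do not bear on the larger ES-only number. They give the size of the single-stage classes for such lists, 15.6% each of the H3K27ac regions.

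**Figure D1:**
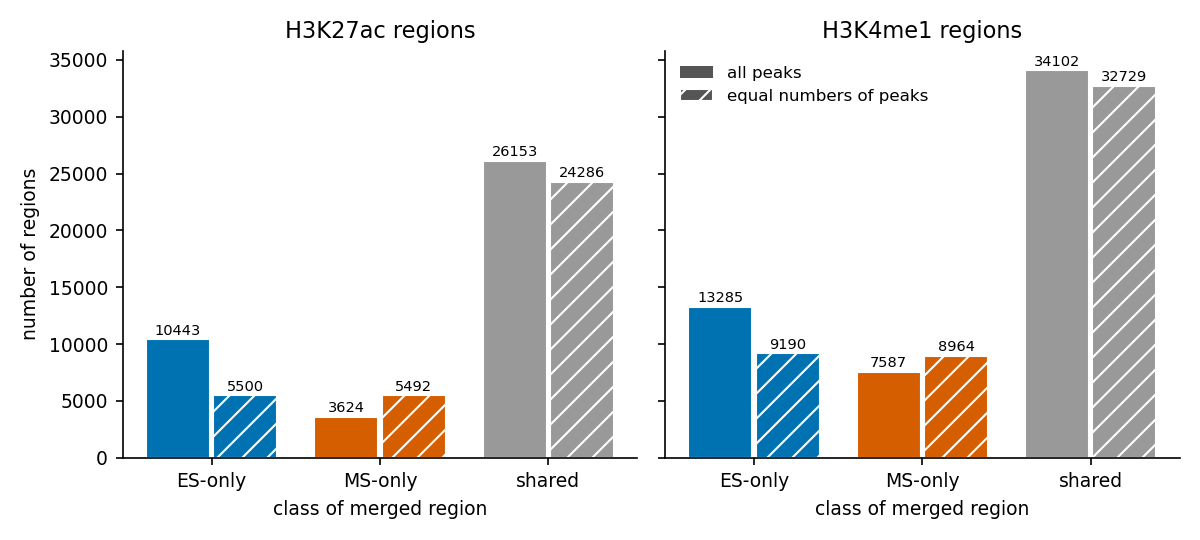
Number of merged regions (y axis) in each class (x axis), for H3K27ac on the left and H3K4me1 on the right; plain bars use all peaks and hatched bars equal numbers of peaks from the ES and MS lists. The hatched ES-only and MS-only bars, at 5500 and 5492 for H3K27ac, are level by construction.

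Regions of a single stage were narrow and lay away from gene ends. The median width of H3K27ac regions was 437 bp for ES-only, 442 bp for MS-only and 1155 bp for shared regions. Over 1 kb from either end of every protein-coding gene, here called far, lay 91.4% (90.8 to 91.9) of ES-only, 92.3% (91.4 to 93.1) of MS-only and 50.1% (49.5 to 50.7) of shared H3K27ac regions. The 2 single-stage classes overlap in these intervals, and both stand clear of the shared class. Their median distance to a gene end was 18.0 kb for ES-only and 21.8 kb for MS-only regions, against 1.01 kb for shared regions. H3K4me1 gave the same order, with median widths of 409, 393 and 1025 bp and far shares of 93.5%, 93.2% and 58.8% for ES-only, MS-only and shared regions. Regions over 3 kb wide were nearly all shared: 2199 shared against 17 ES-only and 1 MS-only of H3K27ac, and 2697 against 6 and 0 of H3K4me1. Of ES-only H3K27ac regions, 57.4% (56.4 to 58.3) touched a protein-coding gene, against 51.8% (50.2 to 53.5) of MS-only and 81.0% (80.6 to 81.5) of shared regions.

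Single-stage peaks were also the weak ones. The deposited fold is the authors' ratio of fragments over local background for each peak and was compared only within a list. In the ES H3K27ac list its median was 4.14 for ES-only peaks and 8.28 for peaks shared with MS, and in the MS H3K27ac list 4.09 for MS-only and 7.66 for shared peaks. In the H3K4me1 lists the medians were 3.05 and 5.76 at ES, and 2.95 and 5.45 at MS. When each list was cut into deciles by −log10 q, the share of peaks with no counterpart at the other stage dropped from the weakest to the strongest decile. At ES it was 76.3% in the weakest H3K27ac decile, 28.4% in the fifth and 0% in the strongest. At MS it was 45.1%, 6.08% and 0.0332% in the same H3K27ac deciles, the last being 1 peak. For H3K4me1 it was 76.7%, 29.0% and 0% at ES, and 63.4%, 13.5% and 0% at MS. In the strongest decile of the 4 lists, that 1 peak, 16.2 kb from Alox5ap, was the only one without a counterpart.

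**Figure D2:**
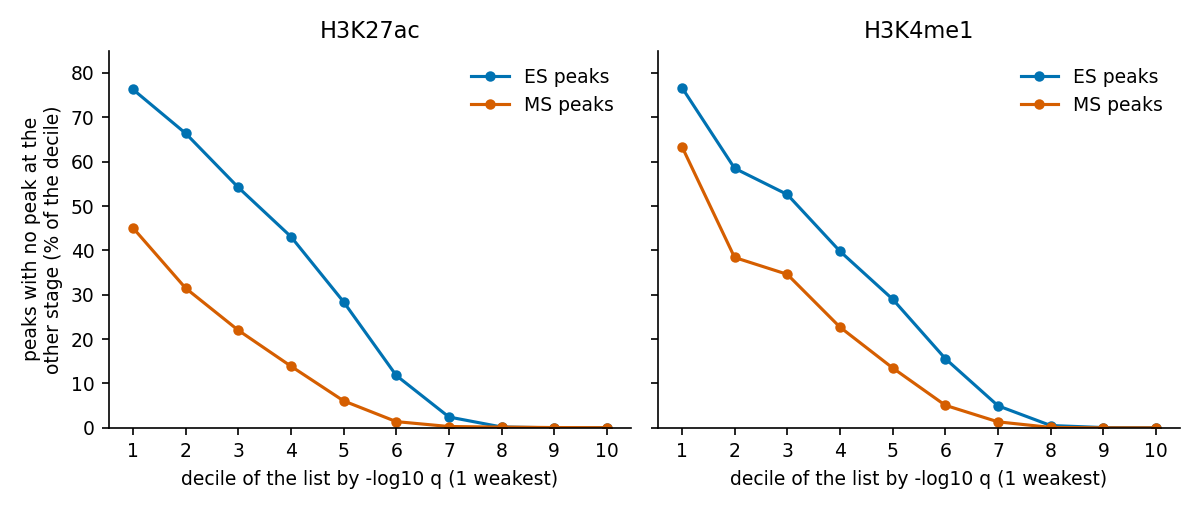
Share of peaks (y axis, percent) that have no overlapping peak at the other stage, in each decile of a list ranked by −log10 q (x axis, 1 is the weakest), for ES and MS lists of both marks. All 4 lines are below 1% from the eighth decile on, with 0.522% for ES H3K4me1 as the highest value there.

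The other 4 stages of the series were not used to class the regions. Pre_PS, before the streak, precedes ES; the late streak (LS), the stage without an allantoic bud (OB) and the early headfold (EHF) follow MS. Many regions without a peak at MS had one at later stages. Of the ES-only H3K27ac regions, 52.8% (51.8 to 53.7) had a peak at LS, 40.6% (39.7 to 41.6) at OB and 34.7% (33.8 to 35.6) at EHF. MS-only regions had 51.2% (49.5 to 52.8), 37.8% (36.3 to 39.4) and 33.9% (32.4 to 35.5). The single-stage classes overlap in their intervals at LS and EHF. With equal numbers of peaks, 64.8% (63.6 to 66.1) of ES-only and 58.8% (57.5 to 60.1) of MS-only H3K27ac regions had a peak at LS. For H3K4me1 these were 50.1% (49.1 to 51.2) and 43.8% (42.8 to 44.8). Only the ES lists were cut in that setting. ES-only regions lost weak members, and MS-only regions gained those whose weak ES peak was cut. These gaps therefore cannot be read as a difference between the stages. Without the weakest peaks, at the floor of both lists, the ES-only and MS-only shares were 56.2% and 55.8% for H3K27ac. For H3K4me1 they were 50.5% and 51.6%. Shared H3K27ac regions had a peak at LS in 95.5% (95.2 to 95.7).

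In all 3 later lists, 2096 ES-only H3K27ac regions (20.1%) and 670 MS-only regions (18.5%) had a peak, and 3469 ES-only regions (33.2%) and 1275 MS-only regions (35.2%) had one in none of them. For H3K4me1, 41.6% (40.8 to 42.5) of ES-only and 40.4% (39.3 to 41.5) of MS-only regions had a peak at LS, against 92.8% (92.5 to 93.1) of shared regions. Regions near gene ends had a peak at LS more often: of those ES-only H3K27ac regions within 1 kb of a gene end, 67.3% (64.1 to 70.3) had a peak at LS, and of the MS-only ones 69.6% (64.0 to 74.7). At Pre_PS, 2.32% of ES-only, 3.12% of MS-only and 43.6% of shared H3K27ac regions had a peak. The Pre_PS lists had a much lower background than the others, at 0.0499 fragments for H3K27ac against 0.262 at ES. The part of depth in their low shares was not tested.

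**Figure D3:**
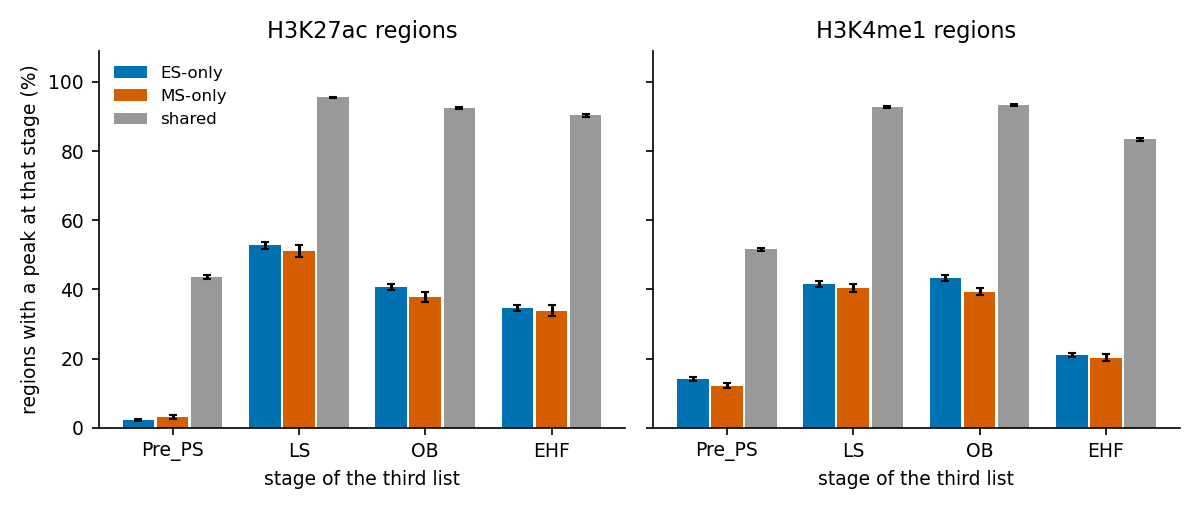
Share of ES-only, MS-only and shared regions (bars, percent) that have a peak in the list of each of the other 4 stages (x axis); whiskers are 95% Wilson intervals. At LS the ES-only and MS-only bars stand at 52.8% and 51.2% for H3K27ac and at 41.6% and 40.4% for H3K4me1.

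The other mark, mapped in separate libraries, was also not used to class the regions. Of ES-only H3K27ac regions, 65.2% (64.3 to 66.1) had an H3K4me1 peak at ES and 53.1% (52.1 to 54.0) at MS. H3K4me1 was present at ES but not at MS in 22.8% (22.0 to 23.6) of them and at MS but not at ES in 10.7% (10.1 to 11.3). MS-only H3K27ac regions did not show the mirror image: 22.0% (20.7 to 23.4) had H3K4me1 at ES but not MS, and 11.8% (10.8 to 12.9) at MS but not ES. The excess of ES H3K4me1 was thus of like size in both single-stage classes, and the ES H3K4me1 list was also the longer one. Among shared H3K27ac regions, 92.9% (92.6 to 93.2) had H3K4me1 at both stages. Of H3K4me1 regions, 18.0% (17.4 to 18.7) of ES-only and 15.2% (14.4 to 16.0) of MS-only ones had H3K27ac at ES but not MS, and 67.8% and 72.8% had H3K27ac at neither stage.

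By covered bases, the ES and MS lists shared 30.2 Mb of H3K27ac, which is 72.8% of the ES bases and 84.0% of the MS bases, and 35.5 Mb of H3K4me1, which is 71.8% and 80.2%. The Jaccard index, the shared part of all bases that either list covers, was 0.639 for H3K27ac and 0.610 for H3K4me1. The other pairs among the 5 lists from ES to EHF had indices of 0.650 to 0.692 for H3K27ac and 0.617 to 0.704 for H3K4me1. ES and MS, neighbours in time, thus had the lowest index of these pairs in both marks, and ES with LS stood at 0.672 and 0.647. MS was also the shortest H3K27ac list of the 5, and the part of list length in this order was not tested. Within shared regions the covered width was at least 1.5 times as large at ES in 10.5% of H3K27ac regions and at MS in 6.56%, and in 12.7% and 7.81% of H3K4me1 regions.

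Genes were compared by the bases that peaks covered in the territory of each gene, meaning the bases within 100 kb for which its own start or end was the closest of all protein-coding genes. Covered bases were divided by the covered Mb of the library, and this quantity is called the share. A gene was called where its share at 1 stage was at least 1.5 times that at the other, with at least 3 kb covered at the higher stage. For H3K27ac, 452 of the 3928 genes with at least 3 kb at either stage (11.5%) were called higher at ES and 275 (7.00%) higher at MS. For H3K4me1, 471 of 4856 (9.70%) were called higher at ES and 363 (7.48%) higher at MS. Of the calls, 62.2% were thus ES in H3K27ac and 56.5% in H3K4me1, and without division by covered Mb these figures were 85.4% and 76.8%. That change of scale moved the median log2 ratio of MS over ES over all these genes by -0.21 for H3K27ac and -0.16 for H3K4me1, from 0.04 and 0.03. Of the genes called ES in H3K27ac, 61 were also called ES in H3K4me1 (13.5% of the H3K27ac calls and 13.0% of the H3K4me1 calls), and 26 were called MS in H3K4me1. Of those called MS in H3K27ac, 20 were called MS in H3K4me1 (7.27% and 5.51%) and 22 ES, so that for these genes the marks pointed in opposite directions about as often as in the same one. Among all genes tested in H3K4me1, 9.70% were called ES and 7.48% MS.

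Hspg2 had the largest ES difference in share of H3K27ac. This gene, which encodes the basement membrane proteoglycan perlecan, had 43.5 kb covered at ES and 20.7 kb at MS, with 2.36 kb at Pre_PS and 35.0 kb at LS. Septin9, a cytoskeletal septin, had 46.2 and 26.3 kb. Ephb2, an ephrin receptor, had 29.3 and 15.6 kb. Arhgef10l, a guanine nucleotide exchange factor gene, was called in both marks: its H3K27ac covered 28.7 kb at ES, 11.8 kb at MS and 33.2 kb at LS, and its H3K4me1 44.4, 25.2 and 47.4 kb. At OB and EHF it had 14.4 and 13.9 kb of H3K27ac and 41.3 and 24.7 kb of H3K4me1, so MS stood below ES and LS but near EHF. Arhgef10l held the largest number of ES-only H3K27ac regions, 14, and 15 of H3K4me1, where Grm4 held the largest number, 17. Pgs1 (22.0 and 6.34 kb), Hmcn2 (18.8 and 6.43 kb), Man1c1 (17.1 and 7.38 kb), Dlgap4 (26.8 and 15.5 kb) and Ube3b (13.2 and 4.51 kb) were the other H3K27ac examples apart from Cbfa2t3, given below.

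Genes with the largest MS differences covered fewer kb. Cacna1g, a T-type calcium channel gene, had 11.3 kb of H3K27ac at ES and 17.4 kb at MS. Uqcc2, an assembly factor of respiratory complex III, had 1.33 and 5.34 kb, with 0 at Pre_PS and 4.36 kb at LS, and it was higher at MS in both marks. In H3K4me1, Foxl1, a forkhead gene, had 11.1 kb at ES and 17.6 kb at MS, Zfp36l2, an mRNA decay factor, 14.0 and 19.9 kb, and Syne3, a nuclear envelope nesprin, 5.64 and 10.9 kb. ES-high H3K4me1 genes included Gramd4 (18.0 and 7.38 kb), Lmnb2 (13.7 and 5.45 kb), Rfx2 (14.9 and 6.52 kb) and Pfkl, a glycolytic phosphofructokinase (10.0 and 2.45 kb). These genes were the 10 per mark and direction with the largest difference in share, and for Ube3b, Cacna1g and 6 further ones of the 40 the direction turned when only the stronger 50% of each list was kept.

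The share of each called gene at a later stage was set against the midpoint of its ES and MS shares. At LS, 201 of the 452 genes called ES in H3K27ac (44.5%, 40.0 to 49.1) lay on the ES side of it, and 123 of the 275 called MS (44.7%, 39.0 to 50.6) lay on the MS side. For H3K4me1, 50.7% (46.2 to 55.2) of ES calls and 51.0% (45.8 to 56.1) of MS calls were on their own side at LS. At OB these figures were 56.2% of ES calls and 34.5% of MS calls for H3K27ac, and 49.9% and 48.2% for H3K4me1. At EHF they were 57.7% (53.1 to 62.2) and 33.1% (27.8 to 38.9) for H3K27ac, and 65.0% (60.6 to 69.1) and 38.3% (33.4 to 43.4) for H3K4me1, so at EHF genes called in either direction lay more often on the ES side. All 4 proportions rest on the same ES and MS libraries that made the calls.

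Genes of gastrulation were described with 21 lists of 347 genes. In H3K27ac, 180 of these had at least 3 kb, of which 10 (5.56%) were called ES and 10 (5.56%) MS, against 11.5% and 7.00% of all genes. In H3K4me1, 208 had at least 3 kb, of which 12 (5.77%) were called ES and 13 (6.25%) MS, against 9.70% and 7.48%. The list genes were thus called no more often than genes in general, and the values below are descriptions of single genes. With equal numbers of peaks, 7 of the 10 ES calls and 7 of the 10 MS calls of H3K27ac were still made, and 10 of 12 and 11 of 13 of H3K4me1. The calls lost were Meox1, Spry4, Ywhaz, Foxh1, Neurog2 and Smad1 in H3K27ac and Erg, Fgf3, Prdm1 and Soat2 in H3K4me1. Without division by covered Mb, all 10 ES calls but only 2 of the 10 MS calls of H3K27ac were still made. In H3K4me1 all 12 ES calls and 9 of the 13 MS calls were. Most MS calls of H3K27ac thus rest on the scaling. At a ratio of 2, 4 and 0 of the H3K27ac calls and 1 and 3 of the H3K4me1 calls were left, and in the stronger 50% of each list 2 and 4, and 4 and 5, Nodal, Fgf8, Itga5 and Sparc being among those lost.

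**Figure D4:**
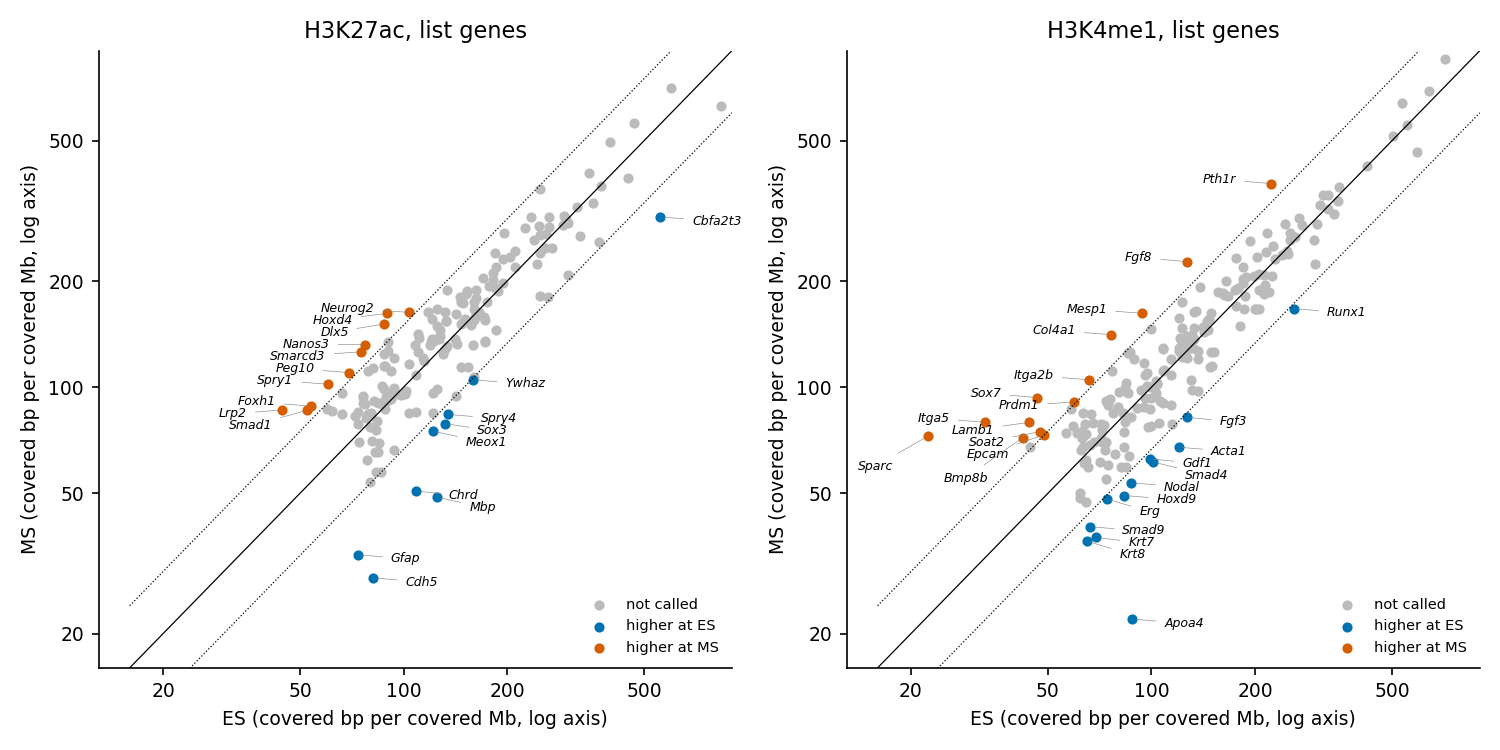
Share of each list gene with at least 3 kb covered, at ES (x axis) and MS (y axis), in covered bp per covered Mb on log axes; the solid line marks equal shares and dotted lines a ratio of 1.5. Most genes lie between the dotted lines; called genes drawn here are named, for example Fgf8 at 127 and 227 in H3K4me1.

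Among the ligands, Nodal and Fgf8 went opposite ways in H3K4me1. Nodal, the TGF-beta family ligand needed to form the streak, had 0.989 kb of H3K4me1 at Pre_PS, 4.32 kb at ES, 2.37 kb at MS, 2.46 kb at LS, 2.32 kb at OB and 2.26 kb at EHF. ES was the single high stage, and the share was 87.5 at ES and 53.6 at MS. Most of the difference lay in the region chr10:61422936-61424986 (mm10), 0.352 kb from a gene end, where peaks covered 1997 bp at ES, 721 bp at MS and 650 bp at LS. H3K27ac at Nodal was 0 at Pre_PS, 2.14 kb at ES and 2.42 kb at MS, and was not called. With only the stronger 50% of each list the Nodal direction in H3K4me1 turned. Fgf8, the FGF ligand that mesoderm cells need to leave the streak, had 1.78, 6.26, 10.0, 7.87, 6.28 and 6.14 kb of H3K4me1 from Pre_PS to EHF, and its share was 127 at ES and 227 at MS. Here MS was the highest stage. The region chr19:45725406-45727596, 8.89 kb from a gene end, was covered over 727 bp at ES, 2191 bp at MS and 1885 bp at LS, and the region chr19:45734686-45737951 at the gene over 1673 bp, 3124 bp and 1641 bp. H3K27ac at Fgf8 was near level, at 6.09 kb at ES and 5.42 kb at MS, shares of 147 and 151.

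Of the Nodal pathway list, 11 of 20 genes had at least 3 kb of H3K27ac, with 0 called ES and 1 called MS, and 13 had at least 3 kb of H3K4me1, with 3 called ES and 0 called MS. The ES calls in H3K4me1 were Nodal, Gdf1, which encodes a ligand that pairs with Nodal (4.89 and 2.77 kb), and Smad4, the common mediator of TGF-beta and BMP signals (5.00 and 2.72 kb). The median log2 ratio of the list was -0.06, beside 0.03 over all genes. Of all genes, 11.5% were called ES and 7.00% MS in H3K27ac, and 9.70% and 7.48% in H3K4me1. At a ratio of 2, 0 of the 3 ES calls in H3K4me1 were left. The MS call in H3K27ac was Foxh1, the DNA-binding partner of activated Smads, with 2.23 kb at ES and 3.17 kb at MS. With equal numbers of peaks Foxh1 was not called and Furin, a protease that activates Nodal, was called ES, so the count became 1 ES and 0 MS, and in the stronger 50% of each list it was 3 ES and 1 MS. Lefty2, a Nodal inhibitor, had 1.93 and 2.56 kb of H3K27ac, below the minimum of 3 kb. Its MS-only region chr1:180897385-180897857, 1.25 kb from a gene end, had no H3K27ac peak in any of the other 5 lists. Cer1, another Nodal inhibitor, had no peak of either mark in its territory in any list.

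Among FGF genes, 16 of 21 had at least 3 kb in each mark. Spry1 and Spry4, feedback inhibitors of receptor tyrosine kinase signalling, were called in opposite directions in H3K27ac: Spry1 had 2.51 kb at ES and 3.65 kb at MS, and Spry4 had 5.61 and 3.00 kb. The Spry4 direction turned with equal numbers of peaks. Fgf3 had 6.29 kb of H3K4me1 at ES and 3.63 kb at MS, and it too turned with equal numbers of peaks. In the BMP list, 16 of 23 genes had at least 3 kb in each mark. Chrd, the BMP antagonist of the node, was called ES in H3K27ac with 0.490, 4.53, 1.82, 2.69, 2.43 and 1.26 kb from Pre_PS to EHF, its ES level being the highest. With only the stronger 50% of each list, the direction of Chrd turned, and with territories of 50 kb Chrd was not called. Part of its ES coverage was the ES-only region chr16:20819078-20820413, 76.7 kb from a gene end, which had no H3K27ac in any other list. Smad1 was called MS in H3K27ac (2.17 and 3.09 kb), Smad9 ES in H3K4me1 (3.28 and 1.78 kb) and Bmp8b MS in H3K4me1 (2.09 and 3.18 kb). Bmp4 was not called in either mark, with 5.57 and 6.78 kb of H3K27ac and 6.78 and 5.62 kb of H3K4me1. Of the Wnt list, 13 of 24 genes in H3K27ac and 16 in H3K4me1 had at least 3 kb, and 0 were called. Wnt3, which starts streak formation, had 8.13 and 9.79 kb of H3K27ac, shares of 196 and 273.

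The transcription factors of the streak had no calls in H3K27ac between ES and MS. Of the 17 primitive streak genes, 11 had at least 3 kb of H3K27ac and 0 were called, with a median log2 ratio of 0.04, and 13 had at least 3 kb of H3K4me1, where Nodal and Fgf8 were the 2 calls. T, the Brachyury gene, had 0.935 kb of H3K27ac at ES and 0.935 kb at MS, LS, OB and EHF. That is below the minimum of 3 kb, so T could not be called. A value that is the same at each of these stages may be the whole of a small territory. It therefore does not show that the mark at T was constant. Eomes, a T-box gene of the streak and definitive endoderm, had 5.41 kb of H3K27ac at ES and 4.46 kb at MS, and 5.66 and 3.47 kb of H3K4me1. At the Eomes region chr9:118476854-118480036 H3K4me1 covered 3183 bp at ES, 1532 bp at MS and 2922 bp at LS. Mixl1 had 1.51 and 1.39 kb of H3K27ac, Evx1 5.20 and 6.01 kb, Sp5 5.53 and 5.54 kb, Sp8 6.06 and 6.45 kb, and Cdx2 5.31 and 5.21 kb. The remaining list members were Wnt3a, with 6.66 and 5.68 kb, Fgf4, with 2.52 and 2.92 kb, Tdgf1, with 0.736 and 0.421 kb, and Cdx1, with 0.859 and 0.808 kb. Lhx1, a LIM homeobox gene of the anterior streak and node, had 10.3 kb at ES and 6.51 kb at MS, a log2 ratio of -0.46 by share, which is short of a call. It had 4 ES-only and 2 MS-only H3K27ac regions, and at chr11:84561516-84563262, 36.0 kb from a gene end, H3K27ac covered 1747 bp at ES, 341 bp at MS and 339 bp at LS. H3K4me1 at Lhx1 was 14.7 kb at ES, 9.91 kb at MS and 14.4 kb at LS. Gsc, a homeobox gene of the anterior streak, had H3K27ac shares of 157 and 150. Axin2, a Wnt feedback target, had 13.5 and 9.67 kb of H3K27ac and 4 ES-only regions.

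In the list of nascent and paraxial mesoderm, Mesp1 was the MS call in H3K4me1. It encodes a bHLH factor of the first mesoderm to leave the streak. Its H3K4me1 covered 1.11, 4.64, 7.17, 6.99, 6.22 and 3.46 kb from Pre_PS to EHF, and the share was 94.0 at ES and 162 at MS. At chr7:79790398-79793795, which includes the gene end, it covered 1979 bp at ES, 3361 bp at MS and 3305 bp at LS. This region had 3283 bp at OB and 1821 bp at EHF. At chr7:79797065-79798845 H3K4me1 covered 603, 1781 and 681 bp at ES, MS and LS. The wide state thus lasted past MS, to OB, at the former region alone. H3K27ac at Mesp1 was 4.30 kb at ES and 4.18 kb at MS. Of 20 list genes, 16 had at least 3 kb of H3K27ac, where Meox1, a homeobox gene of somites, was the single call, which was lost with equal numbers of peaks: it had 0, 5.04, 2.69, 5.36, 3.29 and 5.40 kb from Pre_PS to EHF, with 5 ES-only and 0 MS-only regions. MS and OB were its low stages after Pre_PS. Tbx6, a T-box gene of presomitic mesoderm, had 3.37 and 4.05 kb, and Snai1, the repressor that drives epithelial-mesenchymal transition, 14.3 and 14.6 kb, neither called.

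Of the 18 genes of epithelial-mesenchymal transition, 12 had at least 3 kb of H3K4me1. Of these, 0 were called ES and 2 MS, against 9.70% and 7.48% of all genes. Their median log2 ratio was 0.18, beside 0.03 over all genes. Itga5, the alpha subunit of the fibronectin receptor, had 2.36, 1.62, 3.52, 2.67, 2.25 and 1.94 kb from Pre_PS to EHF, shares of 32.8 at ES and 79.5 at MS. Its region chr15:103364733-103367423 at the gene end was covered over 1621 bp at ES and 2691 bp at MS, and it had 2 MS-only regions. Epcam, an adhesion molecule of epithelia, had 2.40 kb of H3K4me1 at ES and 3.24 kb at MS. The Epcam call was lost with territories of 50 kb, at a ratio of 2, without scaling and in the stronger 50% of each list. In H3K27ac, 9 genes of this list had at least 3 kb and 0 were called.

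**Figure D5:**
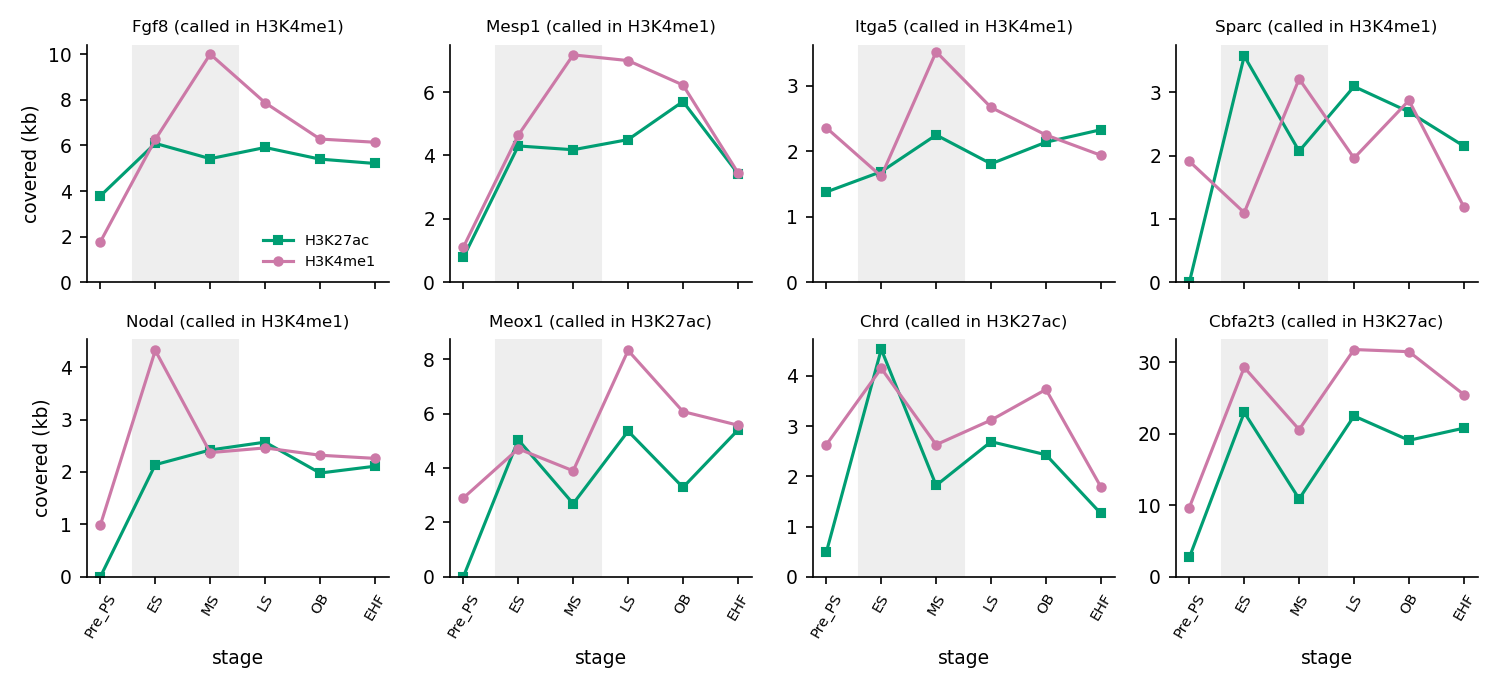
Covered bases in the territory of 8 list genes (y axis, kb) at the 6 stages (x axis), H3K27ac as squares and H3K4me1 as circles; ES and MS are shaded. H3K4me1 of Fgf8 and Mesp1 peaks at MS with 10.0 and 7.17 kb, and H3K4me1 of Nodal at ES with 4.32 kb.

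Among endoderm and node genes, Foxa2 had 6.13 and 5.46 kb of H3K27ac and Sox17 3.63 and 4.12 kb, neither called. Of the epiblast list, 12 genes in H3K27ac and 15 in H3K4me1 had at least 3 kb and 0 were called: Pou5f1 had 1.01 and 0.855 kb of H3K27ac, Nanog 1.70 and 1.49 kb, Otx2 7.72 and 5.19 kb, and Sox2 8.09 and 7.09 kb. In the neural list, Sox3 was called ES (5.47 and 2.83 kb) and Neurog2 MS (4.29 and 5.84 kb) in H3K27ac, out of 22 genes with at least 3 kb, and 0 of 23 were called in H3K4me1. Sox3 was not called with territories of 50 kb or in the stronger 50% of each list. The Neurog2 direction turned in the stronger 50% of the lists, as did those of Gdf1, Bmp8b, Dlx5, Runx1, Erg, Mbp and Ywhaz.

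Blood and endothelial genes had a summed H3K27ac share of 3093 at ES and 2615 at MS. Their median log2 ratio was 0.05 over 11 genes, beside 0.04 over all genes, so the list as a whole did not shift. Much of the summed difference lay at Cbfa2t3. Cbfa2t3, a corepressor of blood cell differentiation, had 2.70, 23.0, 10.9, 22.5, 19.1 and 20.8 kb from Pre_PS to EHF, and MS was the lowest stage after Pre_PS. The shares were 555 at ES and 304 at MS. It had 6 ES-only and 1 MS-only regions, and in shared regions such as chr8:122628387-122631051 H3K27ac covered 2604 bp at ES, 763 bp at MS and 2495 bp at LS. Cdh5, the cadherin of endothelium, was also called ES (3.38 and 1.03 kb). The Cdh5 call was lost with territories of 50 kb and in the stronger 50% of each list. In H3K4me1, Runx1, a regulator of blood stem cell formation, was called ES (12.8 and 7.38 kb, with 8 ES-only and 0 MS-only regions), as was Erg (3.66 and 2.13 kb), while Sox7 (2.29 and 4.14 kb) and Itga2b, the integrin subunit CD41 of early blood (3.25 and 4.64 kb), were called MS. The Erg direction turned with territories of 50 kb. Without the weakest peaks, those at the floor of each list, neither Runx1 nor Erg was called.

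Of the remaining lists, lateral plate and extraembryonic mesoderm had 0 calls among 13 genes in H3K27ac and 16 in H3K4me1. Its member Hand1 had 7.53 and 7.58 kb of H3K27ac. Single calls were Smarcd3, a chromatin remodelling subunit of heart mesoderm (3.11 and 4.51 kb), Dlx5 (3.63 and 5.44 kb), Hoxd4 (3.72 and 5.81 kb) and Nanos3, a germ cell gene (3.20 and 4.75 kb), all MS in H3K27ac. Prdm1 (2.94 and 4.01 kb) was MS in H3K4me1. Krt8 (3.21 and 1.62 kb), Krt7 (3.41 and 1.66 kb) and Hoxd9 (4.12 and 2.18 kb) were ES in H3K4me1. Genes of the adult tissue and housekeeping lists were called too. Of 4 adult tissue genes with at least 3 kb of H3K27ac, 2 were called ES, against 11.5% of all genes. They were Gfap (3.06 and 1.20 kb) and Mbp (5.17 and 1.75 kb), glial genes. The median log2 ratio of that list was -0.86, beside 0.04 over all genes. With equal numbers of peaks 3 of 3 were called ES, with a median of -1.12. In the stronger 50% of each list 0 had at least 3 kb. Ywhaz, a housekeeping gene (6.58 and 3.78 kb), was the 1 ES call of 4 in H3K27ac. Acta1, a muscle actin gene (5.92 and 2.99 kb), was ES in H3K4me1, the 1 call of 5 adult tissue genes.

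Summed over each list, markers of tissues that were to be dissected away were at like levels at ES and MS, except for parietal endoderm genes in H3K4me1. Single genes differed in either direction. A promoter window of Elf5, printed below, and one of Apoa1 had both marks at ES and neither at MS. One of Hnf4a had H3K27ac at ES and not at MS, with the nearest MS peak 13655 bp away. One of Rbp4 had H3K27ac at MS and not at ES, with an ES peak 53 bp away. The 16 visceral endoderm genes had a summed H3K27ac share of 425 at ES and 433 at MS and an H3K4me1 share of 487 and 461. Afp, Ttr, S100g and Fgb, defining genes of that tissue, had no peak of either mark at either stage. Lrp2 was called MS in H3K27ac (1.83 and 3.09 kb), and in H3K4me1 Apoa4 ES (4.33 and 0.974 kb) and Soat2 MS (2.33 and 3.31 kb). The 16 trophoblast genes summed to 1574 and 1623 in H3K27ac and to 1694 and 1782 in H3K4me1, with Rhox5 and Tpbpa at 0, and Peg10 was called MS in H3K27ac (2.88 and 3.96 kb). The 10 parietal endoderm genes summed to 879 and 929 in H3K27ac but to 734 and 1001 in H3K4me1, with Plat at 0. Of the 6 with at least 3 kb of H3K4me1, 0 were called ES and 4 MS, against 7.48% of all genes, with a median log2 ratio of 0.80. With equal numbers of peaks the same 4 were called, without the weakest peaks at the floor of each list 3 of 5, at a ratio of 2 Sparc alone, and in the stronger 50% of each list Pth1r alone of 2 genes, with a median of 0.39. The 4 are Sparc, a matrix glycoprotein gene (1.10 and 3.21 kb), Col4a1 and Lamb1, genes of collagen IV and laminin chains of basement membranes (3.76 and 6.24 kb, and 2.18 and 3.52 kb), and Pth1r, a parathyroid hormone receptor gene (11.0 and 16.7 kb). At the Sparc region chr11:55417872-55420208 H3K4me1 covered 772 bp at ES, 2337 bp at MS, 1022 bp at LS, 2252 bp at OB and 833 bp at EHF, while H3K27ac of Sparc was higher at ES (3.57 and 2.07 kb). Embryonic cells also express basement membrane genes. The part of parietal endoderm cells in any difference between ES and MS was not tested.

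Promoters were read from the RefSeq table of GRCm38.p6, the assembly that mm10 names, as the 250 bases before each start: 21045 windows of 17274 genes, among them 237 of the 347 list genes. For H3K27ac, 11914 windows (56.6%) had a peak at both stages, 532 (2.53%) at ES alone, 236 (1.12%) at MS alone and 8363 at neither. For H3K4me1 the counts were 12193, 475 (2.26%), 335 (1.59%) and 8042. Promoters were thus nearly all marked at both stages or at neither. Where 1 stage alone had a peak, the other often had one close by: a peak lay within 1 kb for 43.6% (39.5 to 47.9) of the ES windows and 55.5% (49.1 to 61.7) of the MS windows of H3K27ac. At LS, 68.4% of the ES windows and 66.9% of the MS windows of H3K27ac had a peak. Median GC content was 62.8% in windows marked at both stages, 55.2% at ES alone, 53.2% at MS alone and 46.4% at neither.

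Of list genes, 5 such promoters are printed because their marking differs between ES and MS by distances that range from a peak's edge to no peak for many kb. They were chosen after their classes were seen. Elf5, a trophoblast transcription factor gene, lies at chr2:103411848-103412097 on the plus strand. All 250 bases were inside an ES H3K27ac peak, the nearest MS H3K27ac peak was 68380 bp away, and both marks were present at ES, LS and OB. Cbfa2t3, at chr8:122699110-122699359 on the minus strand, was covered whole by H3K27ac at ES and again at LS, OB and EHF, with the nearest MS peak 9920 bp away, while its H3K4me1 was present at all 6 stages. Epcam, at chr17:87635729-87635978 on the plus strand, had H3K4me1 over 173 bp at MS and at LS, OB and EHF, with the nearest ES peak 589 bp away. Lef1, a Wnt effector, has 4 windows, and 1 of them was marked at a single stage. This window, at chr3:131156044-131156293 on the plus strand, had H3K4me1 over all 250 bases at MS alone, 178 bp from an ES peak. It had no H3K27ac at any stage. The Elf5 and Cbfa2t3 windows are likewise 1 of 2 windows of their gene. Msgn1, a bHLH gene of presomitic mesoderm, at chr12:11208949-11209198 on the minus strand, had H3K4me1 over 67 bp at MS with an ES peak 3 bp away, which is a shift of an edge. Sequences run in the direction of transcription, 5′ to 3′. Capitals mark matches to the SNAI1 E-box in Elf5 and Epcam and to the TCF/LEF site in Msgn1, on either strand, while Cbfa2t3 and Lef1 had no match to the motifs spelled out in the next paragraph.
Elf5: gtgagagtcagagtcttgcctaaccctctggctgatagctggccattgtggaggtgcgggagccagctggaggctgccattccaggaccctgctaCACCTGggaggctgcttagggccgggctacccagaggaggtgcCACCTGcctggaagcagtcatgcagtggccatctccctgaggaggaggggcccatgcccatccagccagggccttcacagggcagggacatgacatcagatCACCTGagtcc
Cbfa2t3: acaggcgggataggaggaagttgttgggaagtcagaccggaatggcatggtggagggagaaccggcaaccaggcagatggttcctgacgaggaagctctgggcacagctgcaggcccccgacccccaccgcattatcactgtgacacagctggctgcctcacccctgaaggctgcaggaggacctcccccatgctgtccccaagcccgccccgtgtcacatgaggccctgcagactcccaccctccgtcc
Epcam: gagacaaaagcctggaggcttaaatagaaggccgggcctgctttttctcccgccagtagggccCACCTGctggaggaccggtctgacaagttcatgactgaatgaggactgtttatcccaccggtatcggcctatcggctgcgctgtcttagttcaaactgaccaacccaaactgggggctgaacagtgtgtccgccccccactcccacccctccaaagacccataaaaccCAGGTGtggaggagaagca
Lef1: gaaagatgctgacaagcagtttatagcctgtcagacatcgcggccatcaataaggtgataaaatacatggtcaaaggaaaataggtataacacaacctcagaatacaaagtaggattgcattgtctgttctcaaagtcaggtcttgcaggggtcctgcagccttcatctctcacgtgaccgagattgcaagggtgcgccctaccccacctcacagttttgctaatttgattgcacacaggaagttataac
Msgn1: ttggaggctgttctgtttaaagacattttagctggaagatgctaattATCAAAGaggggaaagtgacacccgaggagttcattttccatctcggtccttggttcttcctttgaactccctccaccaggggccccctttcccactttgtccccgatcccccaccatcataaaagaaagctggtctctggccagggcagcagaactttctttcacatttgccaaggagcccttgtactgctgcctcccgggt

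The letters of 5 motifs were looked for on both strands. Of all windows, 1.01% held the T-box letters TCACACCT and 1.59% the POU octamer ATGCAAAT. The TCF/LEF letters CTTTGAT were in 2.85%. The GATA letters AGATAA were in 8.84%. The SNAI1 E-box letters CAGGTG were in 17.0%, and T-box and E-box matches can overlap. In H3K27ac windows marked at ES alone the T-box letters were in 2.26% (1.29 to 3.90) and at MS alone in 0.424% (0.0748 to 2.36). In H3K4me1 windows they were in 1.26% (0.580 to 2.73) and 2.09% (1.02 to 4.25), so the order of the stages was not the same in both marks and the intervals overlap. The E-box letters were in 19.9% of ES-alone and 16.1% of MS-alone H3K27ac windows, and in 22.5% and 17.6% of the H3K4me1 windows. A match describes letters and shows no binding.

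The strongest regions of a single stage, by −log10 q, lay near genes of many kinds. The strongest ES-only H3K27ac region, chr3:14275079-14275598, lay 92.8 kb from Ralyl, had a fold of 11.0, and was marked at LS, OB and EHF as well. Among the 10 strongest, the one at 22.2 kb from Pax2, a neural and kidney homeobox gene, was also present at LS, OB and EHF. The strongest MS-only H3K27ac region, chr5:149247962-149248810 near Alox5ap, had a fold of 15.5, at the 90.4th percentile of the MS list, and had no peak of either mark in any other list. Another of the 10, 12.4 kb from an end of Notch3 and inside that gene, was also present at LS, OB and EHF. In H3K4me1 the strongest ES-only region lay 11.5 kb from Cdh15 with a fold of 9.49 and the strongest MS-only region 72.4 kb from an end of Tacc2 with a fold of 8.92. The widest ES-only H3K27ac region covered 4.87 kb at Zswim8, and the widest MS-only region 3.30 kb inside Sipa1l3; both were marked at LS, OB and EHF. A peak of the same mark in none of the other 5 lists was found for 3414 ES-only and 1235 MS-only H3K27ac regions, and for 4970 and 3074 H3K4me1 regions.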

How the data were processed

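The submitters' processing notes name Bowtie2, Picard, MACS2, deepTools and the mm10 build, with no versions or settings. The authors deposited 1 broad peak list per stage and mark, with no replicate. Per the file layout, each deposited peak has a fold enrichment, its −log10 p and −log10 q, and a score the authors derived as 10 times the −log10 q, which was not used. Counts of fragments were not analysed here.

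Peaks on chromosomes 1 to 19 and X were merged across ES and MS (at least 1 bp of overlap) and set against 21631 protein-coding genes of the RefSeq table for GRCm38.p6. Territories reached 100 kb, far meant over 1 kb from a gene end, and a call needed a ratio of 1.5 and 3 kb. Named genes were the 10 calls per mark and direction with the largest difference in share whose sign held with equal numbers of peaks and without floor peaks, the called list genes, all primitive streak genes and a few further list genes. Regions named were the 10 with the highest −log10 q and the 5 widest per class. Genes with the most one-stage regions were also ranked. The promoters and the values of single regions were chosen after they were seen. The comparison, members and lists were chosen with earlier results of these data known. Promoter windows were 250 bases; a longer window was looked at first and gave some genes other classes. No test was made, since 1 library per stage and mark gives none; 95% Wilson intervals cover counting error only. Alternatives were equal numbers of peaks, the upper 50% of each list, no peaks at the floor of the list, overlap of 50%, far over 5 kb, no chromosome X, territories of 50 kb, a ratio of 2, and covered bp without scaling. The steps were tested on simulated data (Python 3.11.15, numpy 2.4.6, pandas 2.3.3). Results for some genes are not reported here.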

Additional observations from a re-analysis of the deposited data

Results flagged for a closer look

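Peaks on chromosome Y, mitochondrial or unplaced sequences were outside every comparison. They numbered 48 in the ES H3K27ac list, 34 in the MS H3K27ac list, 60 in the ES H3K4me1 list and 43 in the MS H3K4me1 list. With no control library, any such peak counted as a signal outside the comparisons.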

How the results depend on the processing

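No paired analysis was possible because there was 1 library per stage and mark, and there was no replicate to leave out. The background at the floor of the list, a stand-in for depth, was 0.262 at ES and 0.211 at MS for H3K27ac, and what depth adds to the number of weak peaks was not tested. Every alternative named in the methods was run. With equal numbers of peaks, H3K27ac gave 5500 ES-only and 5492 MS-only regions. In the upper 50% of each list it gave 3987, 613 and 14369 (shared), and H3K4me1 gave 4788, 2006 and 18961. In that setting a peak below the median of the other list counts as absent.

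Percent far, for H3K27ac ES-only, MS-only and shared regions, was 90.5, 91.0 and 47.2 with equal numbers, 70.9, 74.9 and 26.8 in the upper 50%, 89.0, 88.8 and 46.9 with 50% overlap, and 76.6, 79.7 and 36.9 at 5 kb; shared was 49.4 without floor peaks. For H3K4me1, ES-only regions gave 93.0, 82.3, 91.1 and 79.5 in these 4 settings and 92.8 without floor peaks. MS-only gave 84.3, 90.7 and 78.3 in the last 3 of the 4, and shared 57.4, 37.7, 54.5 and 45.0, with 56.7 without floor peaks. Single-stage regions stayed more often far than shared regions in each setting.

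For equal numbers, upper 50% and no floor peaks in turn, the Jaccard index was 0.663, 0.684 and 0.647 (H3K27ac) and 0.623, 0.680 and 0.628 (H3K4me1). Percent with a peak at LS was 64.8, 96.6 and 56.2 (H3K27ac ES-only), 58.8, 95.8 and 55.8 (MS-only), 50.1, 90.5 and 50.5 (H3K4me1 ES-only) and 43.8, 93.5 and 51.6 (MS-only). Percent with the other mark at the same stage was 75.6, 97.2 and 68.4, then 57.4, 92.8 and 53.7, then 32.3, 75.7 and 32.7, and 13.6, 60.5 and 16.5, in the same order of classes.

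Genes called higher at ES numbered 169 (H3K27ac) and 136 (H3K4me1) at a ratio of 2, and 780 and 733 without scaling. Those called higher at MS numbered 65 and 77 at a ratio of 2, 133 and 222 without scaling, and 178 in the upper 50% for H3K27ac, where 19 list genes were higher at ES. Genes higher in both marks numbered 5 (ES) and 3 (MS) at a ratio of 2, 139 and 8 without scaling, and 12 (MS) in the upper 50%. In the upper 50% the difference in share, MS minus ES, turned for Ube3b (5.35), Cacna1g (-135), Qrich2 (-243), Vapb (-120), Dysf (21.7), Rhou (-112), Arhgef10 (-13.6) and Shisal1 (-10.1); the cause was not tested.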

Other observations

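By 10-Mb windows, the 120 H3K27ac windows with at least 100 kb covered had log2 ratios of MS over ES share from -0.22 to 0.28. The lowest was chromosome 4 from 140 to 150 Mb, at -0.22, and chromosome 4 also held the windows ranked 3 (100 to 110 Mb, -0.21) and 4 (130 to 140 Mb, -0.19). Chromosome 4 had the highest share of ES-only H3K27ac regions, 29.2%, and chromosome 19 the lowest, 23.3%. Chromosomes 13 and X were close to chromosome 4, at 29.1% and 29.0%. In H3K4me1 chromosome 4 was at 23.9%, and X had the highest share, 29.3%.

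Among MS-only regions absent at Pre_PS and present at LS, OB and EHF, 646 carried H3K27ac, 85.9% of them far from gene ends. They included regions of Fgf8 and Fgf3, FGF ligands, Gata5, a zinc finger gene of heart and endoderm, Msx1, a homeobox target of BMP signals, and 2 regions of Lhx1. For H3K4me1 there were 746, among them 2 regions of Foxf1, a forkhead gene of lateral mesoderm, and 1 each of Shh and Id1. ES-only H3K27ac regions present again at LS, OB and EHF numbered 2096, with 5 at Cbfa2t3, 3 at Axin2 and 2 at Cdh5. These genes were picked after the regions were seen.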
